A study of Bos taurus with 36 samples.

Results

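Apolipoproteins are the protein parts of the lipid particles that carry cholesterol and triglyceride in plasma, and 10 genes of this system were followed in bovine fetuses on Day 42 of gestation. They are APOA1 (Entrez 281631), APOA2 (505394), APOA4 (537301), APOB (494004), APOC3 (408009), APOD (613972), APOE (281004), APOH (281006), APOM (505830) and MTTP (280868). A row of the count table was taken when bovine RefSeq gives its Entrez gene one of these symbols, which found all 10 among 35092 genes.

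The liver makes most of the circulating apolipoproteins. APOB is the scaffold of very low density lipoprotein (VLDL), and MTTP, the large subunit of the microsomal triglyceride transfer protein, loads lipid onto it in the endoplasmic reticulum. APOA1 and APOA2 are the main proteins of high density lipoprotein (HDL), APOA4 and APOM ride on HDL and related particles, APOE is the ligand through which remnant particles are taken up, APOC3 slows the breakdown of triglyceride, APOH binds phospholipid, and APOD belongs to the lipocalins and is made mainly outside the liver.

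All fetuses were male. In the ET_D7 group a Day 7 embryo had been placed in a heifer on Day 7 of its cycle, and in the ET_D9 group a Day 7 embryo had been placed in a heifer on Day 9. Each group gave 5 fetuses. The fetuses are numbered by weight, from fetus 1 at 1.253 g to fetus 10 at 1.69 g, and the 5 of ET_D7 (at most 1.37 g) were all lighter than the 5 of ET_D9 (at least 1.396 g), so that weight and transfer group cannot be told apart. There were 9 heart libraries (without fetus 7), 9 gonad libraries (without fetus 2), 8 liver libraries (without fetuses 6 and 7) and 10 libraries of maternal blood, 36 in all. Organs were prepared with a TruSeq stranded mRNA kit and maternal blood with a SMARTer stranded kit, so no test was made between blood and organs.

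Totals per library ran from 18231089 to 40812354 counts, and mitochondrially encoded genes took 2.14% to 57.3% of them. Several libraries stood apart. In the liver, the counts of fetus 1 were a near-constant multiple of those of fetus 2 (median ratio 0.946 over 10969 genes, below 1 in 99.9% of them), and those of fetus 9 were reproduced by a weighted sum of fetuses 10 and 8 to within less than counting error. Heart fetus 1 and gonad fetus 6 were also reproduced by other libraries of their tissue nearly to counting error. For the members, the ratio of fetus 1 to fetus 2 lay between 0.908 and 0.977. Liver fetuses 1 and 2 were therefore counted as 1 sample, and fetus 9 was left out, in each mean ± SD (n = 6). The tests used all 8 liver libraries, and the values with fetuses 1 and 2 averaged and fetus 9 left out stand beside the slopes of APOM, APOA2, APOA1 and APOE. Among counts of 1 to 10, the share of even numbers was 43.9% to 57.0% in 5 organ libraries (heart fetus 1, gonad fetus 8, liver fetuses 1, 8 and 10). It was 70.0% to 81.0% in the other organ libraries and 83.65% to 87.47% in maternal blood. The cardiomyocyte list summed to 3.80 to 71.4 CPM (counts scaled to the size of a library) in 5 liver libraries and to 3675, 1956 and 624 CPM in fetuses 3, 4 and 5. Nearly all of that came from MYL2 and ACTC1, while MYL3 stayed under 1 CPM in every liver. In maternal blood that list ran from 0.537 to 3872 CPM, with MYH7 at 0 to 144426 counts. In the liver 333 genes held either at most 2 or at least 300 counts in each library, with both kinds present, and 0 members were among them.

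The libraries labelled gonads were checked against markers of testis and of the adjoining urinary tissue. A list of 9 genes of mesonephros or kidney summed to 224 to 258 CPM there, against 8.37 to 11.7 CPM in the heart and 168 to 327 CPM in the liver, where CDH16 held most of it (median 148.8 CPM). Its PAX2 had a median of 107.5 CPM in the gonads and NPHS1, a gene of the kidney filter, 9.96 CPM, while the liver medians of these were 0.0930 and 0 CPM. The Sertoli list of 6 genes summed to 14.3 to 23.9 CPM in the gonads and to 16.7 to 29.1 CPM in the heart, and the Leydig list of 6 genes to 6.67 to 14.8 and 10.1 to 24.6 CPM. In the liver the Sertoli list summed to 1.18 to 51.2 CPM and the Leydig list to 62.5 to 148.3 CPM. Neither sum is therefore particular to testis in these data. CYP17A1, an enzyme of androgen synthesis, had a gonad median of 0 CPM and INSL3, a Leydig cell hormone, 0.0361 CPM. The summed testis lists were thus no higher than in the heart, with overlapping ranges, and the name gonads is used as the label gives it.

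The first question was in which organ each gene was expressed. Of the 10 genes, 9 could be tested over the 26 organ libraries, and 8 of these had their highest level in the liver, called against the heart and against the gonads. The 8 were APOA1, APOA2, APOA4, APOB, APOE, APOH, APOM and MTTP. Of all 25095 genes tested, 23.1% were called higher in the liver against both organs at the same threshold (Benjamini-Hochberg adjusted p under 0.05, edgeR's quasi-likelihood test). The hepatocyte list, led by AFP and ALB, was higher in the liver for 9 of 9 genes, and its summed level was 35310 to 61040 CPM there against 5.47 to 16.6 CPM in the heart and 4.37 to 17.5 CPM in the gonads. In such bulk samples, fewer cells of a type and less RNA per cell cannot be told apart. The plot of levels by tissue shows each library.

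**Figure D1:**
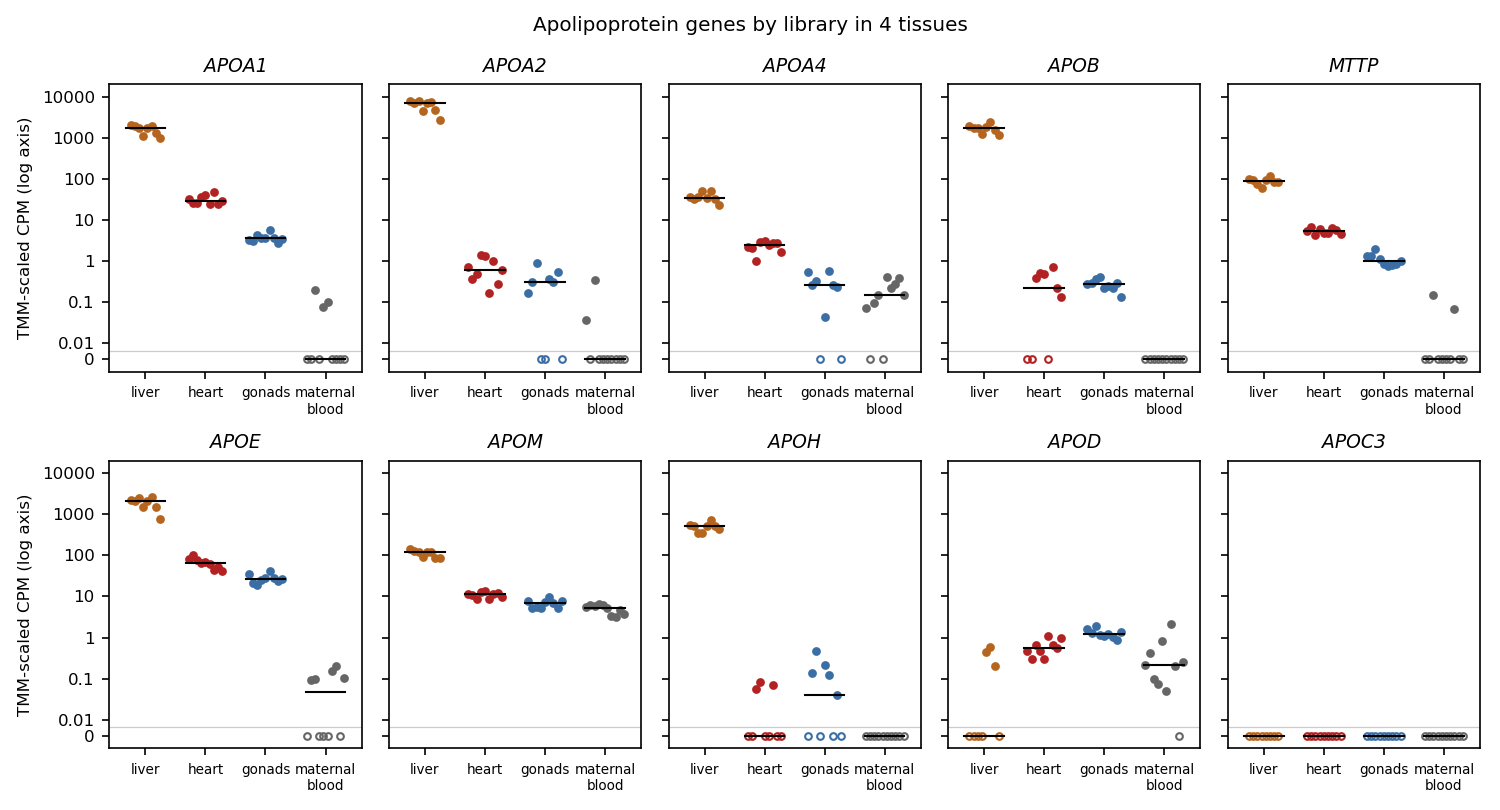
TMM-scaled CPM of the 10 genes in every library (log axis; open points at the bottom are libraries with 0 counts; black bars are medians; within a tissue, points run from the lightest to the heaviest fetus). Liver points lie above all others for 8 genes, APOM is the only member in every library of all 4 tissues at more than 3 CPM, and APOC3 is at 0 throughout.

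APOA2, an HDL protein, had a lowest, median and highest liver library of 2691, 7109 and 8020 CPM. In the heart the same values were 0.164, 0.596 and 1.39 CPM, and in the gonads 0, 0.301 and 0.902 CPM. The groups of libraries did not overlap. Its log2 fold change was 13.12 over the heart (standard error 0.674, adjusted p = 7.03e-16, edgeR) and 14.37 over the gonads (standard error 0.698, adjusted p = 1.78e-16, edgeR).

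APOA1 ran from 1019.9 to 2045 CPM in the liver (median 1757; 1592 ± 425 CPM, SD, n = 6) and from 24.2 to 47.5 CPM in the heart (median 29.6). The gonads held 2.68 to 5.82 CPM (median 3.56). These 3 ranges did not overlap, and each step down was called. APOA1 was 5.64 higher on the log2 scale in the liver than in the heart (standard error 0.204, adjusted p = 3.44e-19, edgeR), and the gonads-minus-heart value was -3.11 (standard error 0.182, adjusted p = 2.98e-14, edgeR).

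The balance of APOA1 and APOA2 therefore differed by organ. The ratio of APOA1 to APOA2 counts, in which library size cancels, was 0.219 to 0.379 in the 8 livers and 26.4 to 148.5 in the 9 hearts. In the 6 gonad libraries that held APOA2 it was 4.72 to 20.5. APOA2 had only 4 to 33 counts in a heart and at most 50 in a gonad library, so the ratios in these organs are coarse. Against AFP, the fetal albumin of hepatocytes, APOA1 stood at 0.117 to 0.204 in the liver and at 11.0 to 144 in the 8 hearts with any AFP. The counts were not divided by gene length, so these ratios are read only between tissues and not as a comparison of the 2 genes.

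APOA4 reached 22.9 to 51.7 CPM in the liver (median 35.0), 1.005 to 3.08 CPM in the heart (median 2.46) and 0 to 0.566 CPM in the gonads (median 0.266). It was 3.995 higher on the log2 scale in the liver than in the heart (standard error 0.468) and 7.22 higher than in the gonads (standard error 0.547). The lowest heart library was above the highest gonad library. In the RefSeq annotation of a later assembly (ARS-UCD2.0), APOA4 and APOA1 share 287 bases, the whole of APOC3 lies inside the span of APOA4, and the gene model LOC107133155 overlaps APOA1 by 2830 bases. With the counting options for strand and shared reads not given in the sources used here, the counts of these genes are uncertain.

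APOC3 had 0 counts in all 36 libraries. With 202866030 counts over the 8 livers, 3 counts would be 0.0148 CPM, a limit that, like the others given, covers counting error only. Low counts were mostly even in most libraries, so single counts may not be independent. These limits may then be too low. Whether the 0 reflects the annotation, the way reads were counted or the level of the transcript cannot be told from the table, so the limit applies to counted reads and not to expression. No fold change can be given. In that annotation APOA4, APOC3 and APOA1 are neighbours, and APOA5, from the same cluster, held 0 to 58 counts per liver library and none elsewhere.

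APOM, which carries sphingosine-1-phosphate, had the smallest log2 fold change over both organs among the 8 liver genes. It had 84.6 to 141 CPM in the liver (median 120.0), 8.83 to 13.4 CPM in the heart (median 11.5) and 5.30 to 9.56 CPM in the gonads (median 6.95). The liver lay above both, and the heart and gonad libraries overlapped. Its log2 fold change was 3.33 over the heart (standard error 0.143, adjusted p = 1.24e-17, edgeR) and -0.71 for gonads minus heart (standard error 0.131, adjusted p = 5.13e-05, edgeR). APOM overlaps BAG6 by 2723 bases in the later assembly's annotation. With the counting options not given, the APOM counts in every tissue are uncertain too.

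The 2 partners of VLDL assembly did not share a pattern outside the liver. APOB had 1202 to 2398 CPM in the liver (median 1739; 1715 ± 438 CPM, SD, n = 6), 0 to 0.698 CPM in the heart and 0.136 to 0.419 CPM in the gonads. It was 12.52 higher on the log2 scale in the liver than in the heart (standard error 0.429) and 12.59 higher than in the gonads (standard error 0.420). Between gonads and heart the difference was -0.07 (standard error 0.403, adjusted p = 0.922, edgeR), and 3 of 9 hearts had no APOB count.

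MTTP was present in every heart, at 4.35 to 6.85 CPM (median 5.52), and in every gonad library, at 0.748 to 1.95 CPM (median 0.999), below its 60.04 to 115 CPM in the liver (median 89.2). The 3 ranges did not overlap. It was 4.02 higher on the log2 scale in the liver than in the heart (standard error 0.174, adjusted p = 1.52e-17, edgeR), and the gonads-minus-heart value was -2.29 (standard error 0.165, adjusted p = 2.73e-12, edgeR). The ratio of APOB to MTTP counts was 14.2 to 22.7 in the livers, 0 to 0.109 in the hearts and 0.136 to 0.365 in the gonads.

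APOE was present in every organ library. Its lowest, median and highest heart held 42.3, 66.8 and 103 CPM. The gonads held 19.5, 27.3 and 41.9 CPM and the liver 752, 2109 and 2653 CPM. No library of one organ reached the range of the next. APOE was 4.87 higher on the log2 scale in the liver than in the heart (standard error 0.238, adjusted p = 2.28e-16, edgeR) and lower by 1.24 in the gonads than in the heart, written as -1.24 for gonads minus heart (standard error 0.205, adjusted p = 1.05e-05, edgeR). Macrophages also make APOE, and the macrophage list (CD68, CSF1R, C1QA and 6 others) summed to 197 to 354 CPM in the liver, 21.5 to 33.2 CPM in the heart and 19.4 to 24.3 CPM in the gonads. The part of these cells in the APOE levels was not tested.

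APOH, a phospholipid-binding plasma protein, was close to absent outside the liver. It had 344 to 732 CPM there (median 517), while the 9 hearts held 6 counts of it in all and the 9 gonad libraries 51 counts. The log2 fold change was 13.91 over the heart (standard error 0.604, adjusted p = 1.64e-17, edgeR) and 12.11 over the gonads (standard error 0.517, adjusted p = 9.51e-18, edgeR). The gonads-minus-heart difference of 1.81 did not pass (standard error 0.932, adjusted p = 0.114, edgeR).

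APOD went the other way. The gonads had 0.873 to 1.93 CPM (median 1.23), the heart 0.300 to 1.11 CPM (median 0.561) and the liver 0 to 0.590 CPM, with 5 of 8 livers at 0. Liver and gonad libraries did not overlap, and heart and gonad libraries did. Its log2 fold change was -2.93 for liver minus gonads (standard error 0.702, adjusted p = 0.000672, edgeR) and -1.87 for liver minus heart (standard error 0.684, adjusted p = 0.0210, edgeR). The call against the heart was lost without fetus 3 (adjusted p = 0.0553), without fetus 10 (0.0606) and without the libraries that others reproduce (0.0540, edgeR). Of all genes, 19.6% were lower in the liver than in both organs.

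**Figure D2:**
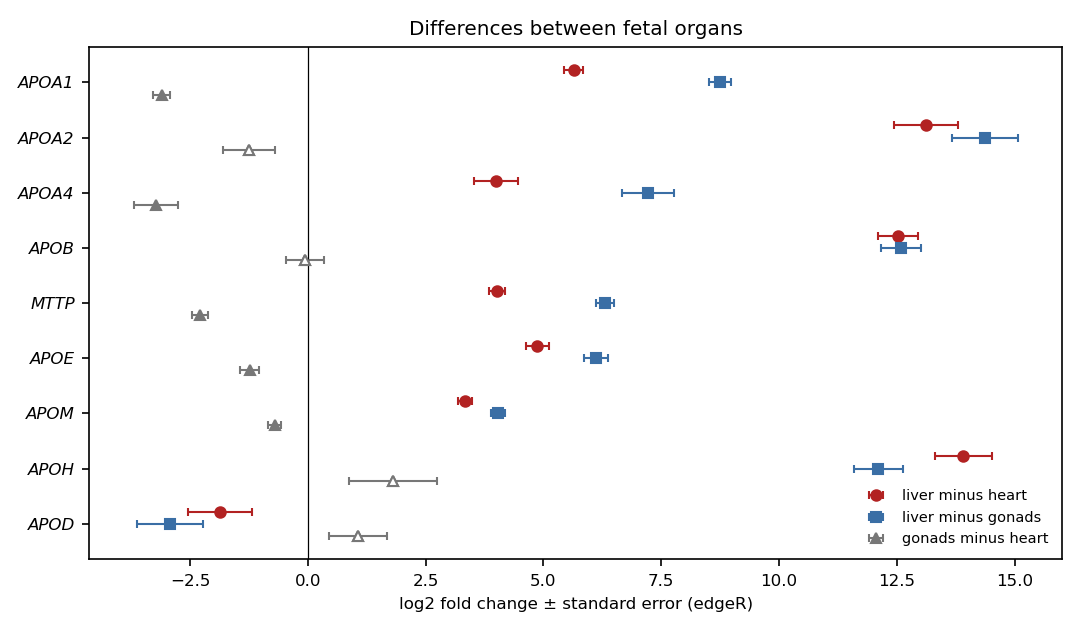
Log2 fold changes (horizontal axis) with standard errors of the 9 genes tested, for liver minus heart (circles), liver minus gonads (squares) and gonads minus heart (triangles); open symbols have an adjusted p of 0.05 or more. APOA2, APOB and APOH lie above 12 for both liver contrasts, the other 5 liver genes lie between 3.33 and 8.75, and APOD alone is negative in both liver contrasts.

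Between gonads and heart, 5 of the 9 genes tested were lower in the gonads (APOA1, APOA4, APOE, APOM and MTTP), against 23.5% of all genes, and 0 were higher, against 23.1%. For APOA2 the value was -1.26 (standard error 0.549, adjusted p = 0.0612, edgeR). With the fetus as a block, which compares organs of the same animal, it became -1.50 (adjusted p = 0.0402, edgeR). The libraries labelled gonads carried the high mesonephros or kidney markers given above, and the part of that tissue in these differences was not tested.

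In maternal blood only APOM had more than a trace of counts in every library, and the part of reads from the overlapping BAG6 in them was not tested. It had 3.25 to 6.44 CPM (median 5.37), or 90 to 276 counts a library. APOB and APOH had 0 counts in all 10, which allows up to 0.00878 CPM over the tissue if single counts are independent. APOA1, APOA2, APOE and MTTP totalled 14, 15, 22 and 8 counts over the 10 libraries, APOA4 62 and APOD 128. APOD was uneven, from 0 to 2.18 CPM, with the highest value in the dam of fetus 7. In order of median CPM, each set of libraries scaled on its own, gonads and maternal blood were neighbours with overlapping ranges for APOA2, APOA4 and APOM.

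The second question was whether the genes followed fetal weight in the liver. Together the 10 genes took from 0.528% (fetus 10) to 1.21% (fetus 5) of all counts of a liver library. The values that follow are CPM scaled over the 8 liver libraries alone. APOM, APOA2 and APOA1 had the steepest slopes relative to their errors, all downwards with weight. None of the 8 genes tested passed the adjusted threshold, against 2.23% of 16605 genes (371). At an unadjusted p under 0.05 there were 3 of 8 genes, against 17.2% of all genes (2848). DESeq2 called 2 of 8, APOA2 and APOM, against 8.68% of all genes. The median slope over all genes was -0.01 log2 units per 0.1 g and over the 8 members -0.12.

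APOM had 109, 103, 102, 77.7 and 98.0 CPM in fetuses 1 to 5 (ET_D7) and 81.2, 70.9 and 63.0 CPM in fetuses 8, 9 and 10 (ET_D9). The 3 heaviest fetuses were below 4 of the 5 lightest, and fetus 4 fell among them. Its slope was -0.15 log2 units per 0.1 g (standard error 0.0395, p = 0.00368, adjusted p = 0.0834, edgeR). With DESeq2 the slope of -0.14 was called (adjusted p = 0.00433), as was -0.16 without fetus 4 (adjusted p = 0.0317, edgeR). With fetuses 1 and 2 averaged and fetus 9 left out it was -0.15 with an adjusted p of 0.785 (edgeR), and with the transfer group as a covariate -0.24 with an adjusted p of 0.680 (edgeR).

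APOA2 had 5949, 5818, 6724, 3957 and 5676 CPM in fetuses 1 to 5 and 5258, 3847 and 2005 CPM in fetuses 8, 9 and 10. Fetus 10 was lowest, and fetus 4 lay close to fetus 9. The slope was -0.23 (standard error 0.0907, p = 0.0309, adjusted p = 0.231, edgeR). Without fetus 10 it was -0.12 (standard error 0.0876) and without fetuses 9 and 10 it was -0.03 (standard error 0.141). DESeq2 called it at -0.22 (adjusted p = 0.0427). With fetuses 1 and 2 averaged and fetus 9 left out it was -0.28 (adjusted p = 0.819, edgeR).

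APOA1 had 1573, 1552, 1472, 940.0 and 1421 CPM in the ET_D7 livers and 1328, 1073 and 759.9 CPM in the ET_D9 livers. Leaving aside fetus 4, which was picked out by its value, the values ran in the order of weight. Fetus 9 is not an independent point in this order, since a weighted sum of fetuses 10 and 8 reproduces its counts. Fetuses 1 and 2 hold nearly the same counts. The order is therefore not read as evidence of a fall with weight. The slope was -0.16 (standard error 0.0669, p = 0.0430, adjusted p = 0.268, edgeR), and -0.10 without fetus 10. Averaging fetuses 1 and 2 and leaving out fetus 9 gave -0.16 (adjusted p = 0.887, edgeR).

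APOE had 1732, 1673, 2069, 1275 and 1736 CPM in fetuses 1 to 5 and 1813, 1285 and 560.4 CPM in fetuses 8, 9 and 10. Fetus 8 was within the range of the lighter fetuses, and fetus 10 had less than any other by a wide gap. The slope of -0.20 (standard error 0.1002, adjusted p = 0.361, edgeR) became -0.06 without fetus 10 and turned to 0.05 without fetuses 9 and 10 (standard error 0.121). It was -0.26 with fetuses 1 and 2 averaged and fetus 9 left out (adjusted p = 0.840, edgeR). In the same livers the macrophage list summed to 273, 260, 222, 255 and 173 CPM in fetuses 1 to 5 and to 180, 162 and 150 CPM in fetuses 8, 9 and 10. Of its 9 genes, C1QC was called (slope -0.23, adjusted p = 0.0339, edgeR), and the median slope was -0.21. Its part in the APOE values was not tested.

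APOB had 1430 to 1499 CPM in fetuses 1, 2, 3 and 5, 1098 CPM in fetus 4, and 1640, 1299 and 895.5 CPM in fetuses 8, 9 and 10. Its slope of -0.07 (standard error 0.0657, adjusted p = 0.668, edgeR) was 0.01 without fetus 10. Intervals given here and below are 2 standard errors either side of a value. MTTP ranged from 51.5 CPM in fetus 4 to 78.8 CPM in fetus 8, a span of 1.53 times, and its slope was 0.00 (interval -0.10 to 0.10). APOH ranged from 288 CPM in fetus 3 to 501 CPM in fetus 8 and had a slope of 0.02 (interval -0.11 to 0.15). APOA4 was highest in fetus 4 (44.4 CPM) and lowest in fetus 10 (17.1 CPM), and its slope was -0.10 (standard error 0.0816, adjusted p = 0.612, edgeR's test). APOD was too low to be tested, with at most 14 counts in a liver.

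**Figure D3:**
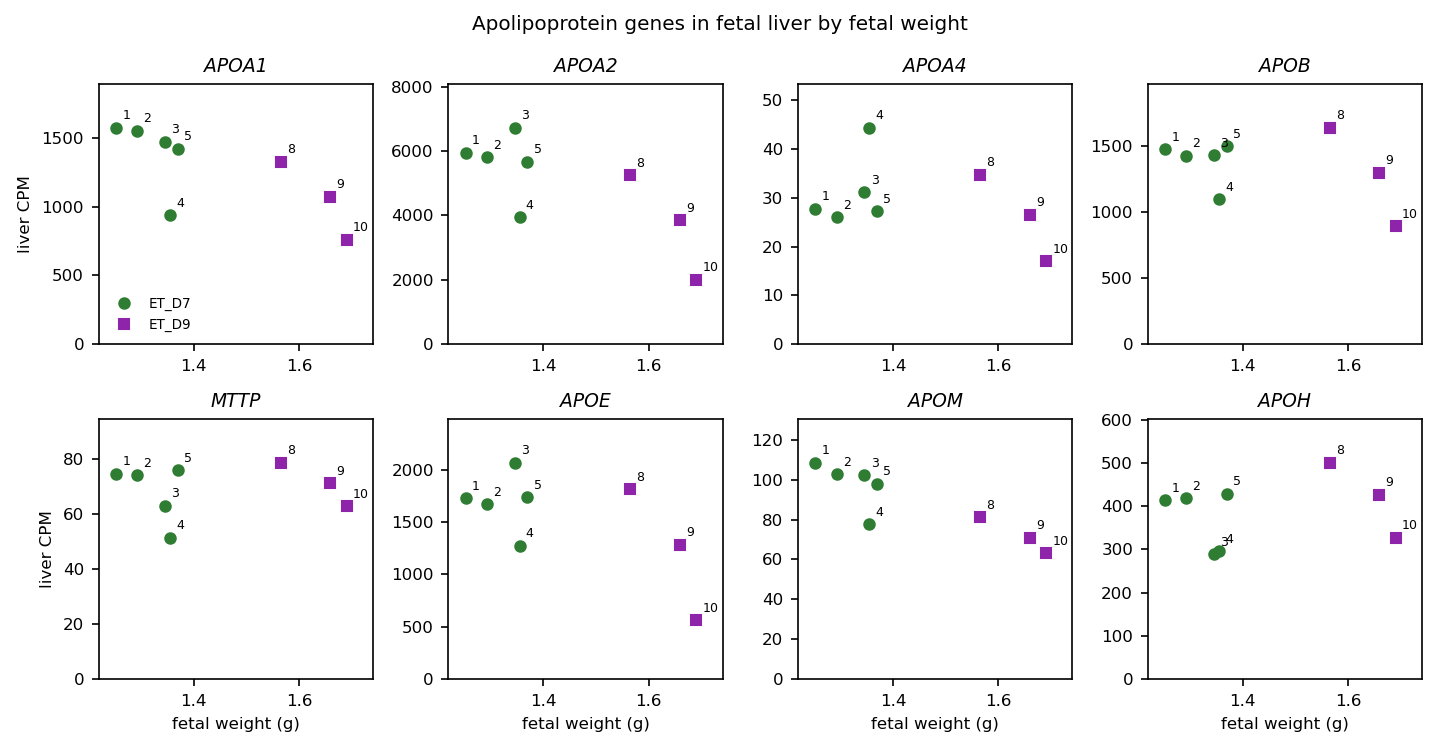
Liver CPM (vertical axis, from 0) of the 8 genes tested against fetal weight in g; numbers are fetuses, circles are ET_D7 and squares ET_D9. Fetus 10 is lowest for APOA1, APOA2, APOA4, APOB, APOE and APOM, and fetus 4 is lowest for MTTP and stands below its weight neighbours for APOA1, APOA2, APOB, APOE and APOM.

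The 2 lowest livers were fetuses 9 and 10 for APOA2 and APOM and fetuses 3 and 4 for APOH, while APOA4 was highest in fetus 4. Fetuses 4 and 10, the 2 lowest for APOA1, APOB, APOE and MTTP, were also lowest for the hepatocyte list. It summed to 44480, 43560, 45200, 30310 and 42940 CPM in fetuses 1 to 5 and to 41730, 35510 and 27720 CPM in fetuses 8, 9 and 10. The erythroid list was highest in the same 2 fetuses, at 4645 CPM in fetus 4 and 5282 CPM in fetus 10, against 3178 to 4469 CPM in the others. Mitochondrial genes took the largest share of counts in fetus 4 (36.8%) and the smallest in fetus 10 (16.3%). The endothelial list was 118 to 147 CPM in the ET_D7 livers and 112, 107 and 105 CPM in fetuses 8, 9 and 10, so that all 3 ET_D9 livers lay below all 5 ET_D7 livers. Of its 6 genes, 2 had rising and 4 falling slopes along weight, and 0 passed adjustment. Among all single genes tested, 14.7% had groups that did not overlap. The part of cell composition in the members' values was not tested.

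Ratios between members do not depend on how a library is scaled. The ratio of APOA2 to APOH counts was 14.4, 13.9, 23.3, 13.4 and 13.2 in fetuses 1 to 5 and 10.5, 9.02 and 6.13 in fetuses 8, 9 and 10. All 3 ET_D9 livers lay below all 5 ET_D7 livers. The ratio of APOE to APOH went from 3.999 to 7.18 in ET_D7 and from 1.71 to 3.62 in ET_D9. The ratio of APOM to MTTP was 1.29 to 1.62 in ET_D7 and 0.993 to 1.03 in ET_D9. These pairs were chosen after the values were seen. Of all 28 pairs of the 8 genes, 11 had transfer groups that did not overlap in the ratio and 17 had groups that did. The share among pairs of other genes was not computed, so the 11 cannot be read as a trait of these genes. Among the overlapping pairs were APOB to MTTP (19.3 to 22.7 in ET_D7, 14.2 to 20.8 in ET_D9) and APOA1 to APOA2 (0.219 to 0.267 and 0.253 to 0.379). No ratio was tested, the pairs share genes, and the ET_D9 group includes fetus 9, which fetuses 8 and 10 reproduce.

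A spline of weight with 3 degrees of freedom, which allows a curve, gave 0 of 8 genes at an adjusted p under 0.05, against 1.81% of all genes. At an unadjusted p under 0.05 it gave 3, which were APOA2 (p = 0.0374), APOE (p = 0.0406) and APOM (p = 0.0447, edgeR, 8 libraries), against 17.9%. The negative binomial additive model, the kind the study's methods name, called 3 after adjustment (APOA1, APOA2 and APOM), against 30.9% of all genes. DESeq2's likelihood ratio test called 2 (APOA2 and APOE), against 10.7%. These fits took all 8 livers as independent, although fetuses 1 and 2 hold nearly the same counts and fetuses 8 and 10 reproduce fetus 9. The p-values may therefore be too small.

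Between transfer groups, ET_D9 minus ET_D7, 0 of 8 genes passed, against 4.14% of all genes with edgeR. At an unadjusted p under 0.05 there was 1 gene (17.4% of all genes), APOM, at -0.45 (standard error 0.151, adjusted p = 0.152, edgeR). DESeq2 also called 0 of 8, against 9.15% of all genes, with an adjusted p of 0.0560 for APOM. The groups overlapped for every member, whereas 14.7% of all genes tested had groups that did not. APOA2 differed by -0.60 (interval -1.23 to 0.03), APOE by -0.48 (interval -1.15 to 0.20) and APOH by 0.18 (interval -0.23 to 0.59). Here too all 8 livers were taken as independent, although fetus 1 nearly repeats fetus 2 and fetuses 8 and 10 reproduce fetus 9. The errors and intervals may therefore be too narrow.

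**Figure D4:**
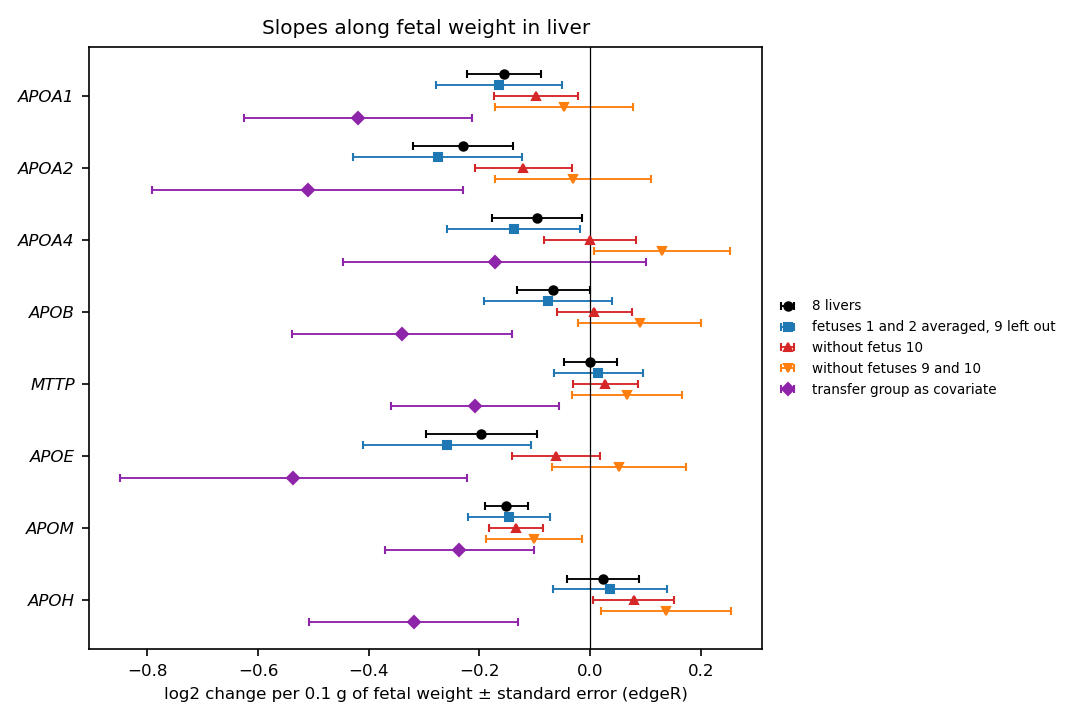
Slopes (log2 change per 0.1 g, horizontal axis) with standard errors of the 8 genes in the liver, fitted with edgeR to all 8 libraries and under 4 alternatives. Slopes of APOA2 and APOE shrink towards 0 without fetus 10, and with the transfer group as a covariate all 8 slopes are negative with wide errors.

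The other tissues gave 1 call along fetal weight. In the heart APOE had 80.6, 103, 75.8, 66.8 and 67.7 CPM in fetuses 1 to 5 and 61.3, 43.5, 51.2 and 42.3 CPM in fetuses 6, 8, 9 and 10. Every ET_D9 heart was below every ET_D7 heart, which held for 1 of 7 members tested and for 3.38% of all genes in that direction. The slope was -0.24 (standard error 0.0484, adjusted p = 0.0395, edgeR), and 6.77% of 16250 genes were called in the heart. The other 6 members tested there had unadjusted p-values of 0.229 or more (edgeR).

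That call rested on several libraries. Leaving out fetuses 1, 2, 4, 5, 8 or 10 one at a time gave slopes of -0.20 to -0.25 and adjusted p-values of 0.0653 to 0.354 (edgeR). The number of genes called in the whole heart fell to 0 in those same fits. Fetus 1 is both the heart library that others reproduce and the one with few even counts, and without it the slope was -0.25 (adjusted p = 0.119, edgeR). With the transfer group as a covariate the slope was -0.18 (standard error 0.0880, adjusted p = 0.699, edgeR). The macrophage list in the heart summed to 24.4, 33.2, 24.3, 23.0 and 21.5 CPM in fetuses 1 to 5 and to 23.3, 32.8, 27.8 and 22.3 CPM in fetuses 6, 8, 9 and 10, and these groups overlapped. The endothelial list was 172 to 229 CPM in the ET_D7 hearts and 240.5 to 329 CPM in the ET_D9 hearts, with fetus 10 highest. These ranges did not overlap, but no share of all heart genes in that direction stands beside them. They are therefore not read as a trait of the list. Mitochondrial genes took 45.1%, 57.3%, 23.5%, 41.5% and 40.8% of counts in fetuses 1 to 5 and 39.0%, 25.5%, 28.5% and 17.1% in fetuses 6, 8, 9 and 10. Their part in the APOE slope was not tested.

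In maternal blood APOM had 5.62, 6.38, 6.01, 6.44 and 6.22 CPM in the dams of fetuses 1 to 5 and 5.11, 3.39, 3.25, 4.73 and 3.75 CPM in the dams of fetuses 6 to 10. The ET_D9 dams were all below the ET_D7 dams, which held for 1 of 2 members tested and for 0.633% of 16284 genes in that direction. The part of reads from the overlapping BAG6 in the APOM counts was not tested. The slope along fetal weight was -0.19 (standard error 0.0651, p = 0.0148, adjusted p = 0.424, edgeR), and no gene of the table passed with edgeR (1578, or 9.69%, had an unadjusted p under 0.05, and DESeq2 called 112, without APOM). With the transfer group as a covariate it was -0.05 (standard error 0.107). In the gonads edgeR and DESeq2 called 0 of 17809 genes (1001, or 5.62%, at an unadjusted p under 0.05 with edgeR), and 0 of the 8 members tested had an unadjusted p under 0.05. MTTP alone had ET_D9 gonads all below ET_D7, at 0.748 to 0.999 against 1.149 to 1.95 CPM, as had 4.3% of all genes.

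**Figure D5:**
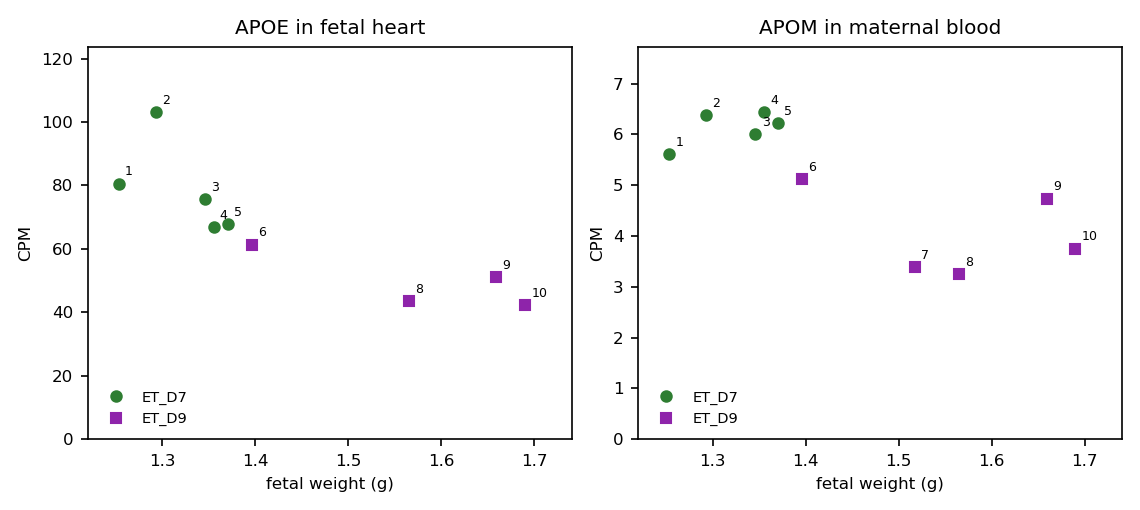
CPM (vertical axis, from 0) of APOE in the fetal heart and of APOM in maternal blood against fetal weight in g; numbers are fetuses, circles are ET_D7 and squares ET_D9. In both, every square lies below every circle, and the squares show no steady fall with weight within their group.

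The wider pathway gives the setting of these genes. Of all genes tested, 23.1% were called higher in the liver than in both organs and 19.6% lower. Along weight in the liver, 2.23% of all genes were called. With 8 to 14 genes tested in a list, 0 called slopes do not set that list apart from this share. Of 13 other apolipoproteins listed, 10 were in the table, and 7 of those were called higher in the liver against heart and gonads alike. APOC2, the activator of lipoprotein lipase, had a median of 359 CPM in the liver and CLU, clusterin, 317 CPM. The 3 that were lower in the liver were APOO, APOOL and APOLD1, which despite their names act in mitochondria or in vessels. SAA4 was called higher with at most 4 counts in a liver. Along weight 0 of the 9 tested passed, and the largest slopes were 0.44 for APOF (adjusted p = 0.473, edgeR) and -0.31 for APOO (adjusted p = 0.275, edgeR).

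Of 14 genes of VLDL assembly and secretion, 7 were higher and 3 lower in the liver than in both organs, and 4 were neither. Of all genes, 23.1% were higher and 19.6% lower, so the 3 lower genes are near the general share. P4HB, the partner subunit of MTTP, was not among the higher ones (238 CPM in the liver, 244 CPM in the heart and 222 CPM in the gonads, medians), and DGAT1, which makes triglyceride, was, at 169 CPM. Along weight 0 of 14 passed. SAR1B, a GTPase of the vesicles that carry large lipoprotein particles, had the largest slope at -2.76 (standard error 0.629, adjusted p = 0.0540, edgeR), and its liver counts ran from 0 to 2163. ERLIN2 had -0.28 (adjusted p = 0.0674, edgeR).

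Of 13 genes that remodel lipoproteins in plasma, 11 were in the table and 9 were tested between organs. LCAT, LIPC and LMF1 were higher in the liver, against 23.1% of all genes, and 0 were lower, against 19.6%. Over 9 genes these counts are not read as a trait of the list. LIPC, hepatic lipase, had a median of 300.5 CPM in the liver and LMF1, which matures lipases, 113 CPM. ANGPTL8, an inhibitor of lipoprotein lipase, had 0 counts in all 36 libraries, as had APOC3. Along weight 0 of 8 passed, with 0.19 for ANGPTL4 and -0.17 for LPL at the ends.

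Of 16 receptors and efflux transporters, 15 were tested and 9 were higher in the liver, 1 lower (LRP8) and 5 neither. The shares over all genes were 23.1% higher and 19.6% lower. LRP1 had a median of 108.5 CPM in the liver and LRPAP1, its chaperone, 78.9 CPM. VLDLR had 0 counts in all 36 libraries, which, as for APOC3 and ANGPTL8, cannot be read as absence of the transcript. Along weight 0 of 14 passed, with -0.19 for LRP8 and -0.11 for CUBN as the largest. Median slopes were 0.01, -0.01, -0.02 and -0.03 in these 4 lists, against -0.12 for the 8 members and -0.08 for the 9 hepatocyte markers.

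For each member with enough counts, the 2 genes with the most similar course over the 8 livers were sought among 8688 genes with at least 100 counts in every liver. For APOE these were VTN (Pearson's r = 0.995), vitronectin, a plasma protein of hepatocytes, and DOC2G (0.991). APOA2 was closest to AMY2B (0.993) and SERPINA1 (0.987), APOM to NTHL1 (0.999) and LZTS2 (0.994), and MTTP to UPF1 (0.994) and NSD2 (0.985). For APOA1 they were ZKSCAN5 (0.996) and VPS52 (0.989), for APOB LRRC61 (0.996) and DEPDC5 (0.995), for APOH LPCAT4 (0.994) and ROGDI (0.991), and for APOA4 ENG (0.970) and C1QTNF6 (0.941). These correlations describe 8 libraries, of which fetuses 1 and 2 hold nearly the same counts and fetus 9 follows fetuses 8 and 10, and no test was made.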

How the data were processed

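RNA was sequenced from fetal heart, gonads and liver and from maternal blood. The authors trimmed reads with Trimmomatic, aligned them with STAR 2.7.0b (assembly ARS-UCD1.3) and deposited whole-number counts by Entrez gene, obtained with featureCounts (Subread 2.0.3). How strand, read pairs and reads with several locations were counted is not given in the sources used here. Symbols came from RefSeq (ARS-UCD2.0), which named 31630 of 35092 genes. Its coordinates were used only for overlaps and neighbours. Totals per library, 18231089 to 40812354 counts, set the precision.

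Organs were compared with edgeR 4.0.16 (quasi-likelihood test, TMM normalization) over all 26 organ libraries and genes with at least 1 count. Trends along weight (slope per 0.1 g, or a spline with 3 degrees of freedom) and the transfer group contrast were fitted within a tissue over genes that reached 10 counts in 4 or more libraries. P-values were adjusted by Benjamini-Hochberg over all genes tested, with a threshold of 0.05. In the organ section and for heart, gonads and blood, CPM was TMM-scaled over the 26 organ libraries, and for blood over its own 10. Alternatives used DESeq2 1.42.0, a negative binomial additive model (mgcv 1.9.3), other filters and scalings, the transfer group as a covariate, and libraries left out. Organs of 1 fetus share a number in the titles and come from the same animal, so a fit with the fetus as a block was an alternative. Averaging liver fetuses 1 and 2, leaving out reproduced libraries or libraries with under 60% even counts, and TMM factors over the 26 organ libraries were chosen after seeing the data. The fits were tested on simulated data. All 10 members were named by rule, and from each list the genes with the largest liver slope and the highest liver CPM. Members and lists were chosen with earlier results of these data known. LPA, an older name of PLG in RefSeq, was taken as not matched. A listed gene is not reported here.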

Additional observations from a re-analysis of the deposited data

Results flagged for a closer look

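Of 34 sets of libraries (a gene in a tissue) tested for a library far from the rest on the scale log2(CPM + 0.5), 4 held one. The usual rate of about 1 in 20 by chance does not apply, because liver libraries depend on one another and many blood counts are 0. In the liver, fetus 10 had 2005 CPM of APOA2 (gap 0.539 of the range over 8 libraries) and 560.4 CPM of APOE (gap 0.629), both the lowest. In maternal blood, the dam of fetus 3 had the highest APOA2 (0.341 CPM, from 14 counts) and the highest MTTP (0.146 CPM, from 6 counts), where 8 of 10 libraries had 0 counts of each.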

How the results depend on the processing

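The 8 genes called higher in the liver than in heart and gonads numbered 8 under all alternatives run, although DESeq2's size factors moved the median of all genes by 0.13 on the log2 scale. The liver slopes were sensitive to single fetuses, and the cause was not tested. Along weight in the liver, the count of 0 genes became 2 with DESeq2, 3 at an unadjusted p under 0.05, and 0 to 1 with single fetuses left out (1 without fetus 4). For the spline it became 2 with DESeq2 and 3 with the additive model. The spline was not fitted without the libraries of under 60% even counts. In the heart the count of 1 became 0 with the transfer group as a covariate, 0 without the reproduced library or the one under 60% even counts, and 0 to 1 with single fetuses left out. Without fetuses 9 and 10, liver slopes turned to 0.0518 for APOE, 0.0893 for APOB and 0.130 for APOA4. With the transfer group as a covariate they turned to -0.21 for MTTP and -0.32 for APOH, and with no filter beyond 1 count MTTP had -0.00101. With single fetuses left out, slopes ran from -0.0168 to 0.0271 for MTTP, from -0.00538 to 0.0782 for APOH and from -0.100 to 0.00695 for APOB. The group contrast ran from -0.0135 to 0.169 for MTTP and from -0.33 to 0.0847 for APOB, and the gonads-minus-heart difference of APOB from -0.21 to 0.30. The fetus as a block, where organs pair by animal, changed 1 call, that of APOA2 between gonads and heart (-1.50, adjusted p = 0.0402). Counts over all genes moved too. In the liver, 371 genes had a called slope, 23 to 740 with single fetuses left out, 106 with fetuses 1 and 2 averaged and 9 left out, and 0 without fetuses 9 and 10 or with the covariate. In the heart, 1100 genes became 0 to 3947 with single fetuses left out. Depth limits the low genes, since 3 counts over a tissue are 0.00878 to 0.0148 CPM.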

Other observations

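The small intestine also makes APOA1, APOA4, APOB and MTTP. The intestine list (VIL1, CDX2, FABP2 and SI) summed to 1.11 to 3.14 CPM in the heart, 0.418 to 1.39 CPM in the gonads, 2.61 to 10.1 CPM in the liver and 0.195 to 0.941 CPM in maternal blood. FABP2 had 0 counts in all 36 libraries, a value that may come from the annotation or the counting and marks nothing by itself, and CDX2 reached at most 6 counts in a liver. The part of such cells in the members' levels was not tested.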
